A study of Mus musculus with 6 samples.

Results

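The guanylate-binding proteins are a family of interferon-inducible GTPases, and 5 of their genes, Gbp2, Gbp3, Gbp6, Gbp7 and Gbp8, are described here in mouse bone marrow cells that received a mimic of the microRNA miR-142-3p. The members are the 9 probe sets, of 45101 on the array, to which the platform annotation gives a symbol of these 5 genes. Of the 9, 8 carry 1 symbol and 1 carries both Gbp8 and Gbp4. The array names 18193 genes by a probe set with 1 symbol. Marrow cells of healthy C57BL/6 mice were transfected with GeneSilencer reagent, at 100 nM, with either the mimic (3 arrays) or a control oligonucleotide (3 arrays). Both groups were given GM-CSF and IL-6 after 5 h and kept in them for 4 days, and the RNA is labelled as that of MDSCs (myeloid-derived suppressor cells) made in vitro from marrow, which are young myeloid cells known to hold back T cell responses. Total RNA of each culture was read on an Affymetrix MOE430 2.0 array, where a probe set is a group of short probes to 1 transcript. Whether replicate arrays stand for different cultures or mice is not in the labels. The p-values therefore reflect the spread between these 6 samples alone, possibly a technical one, and the small number of arrays limits the precision. Cells were measured in bulk, so more cells with a transcript and more transcript in each cell cannot be told apart.

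As background, guanylate-binding proteins are large GTPases of the dynamin superfamily, made mainly after interferon-gamma and also after type I interferon. They gather on vacuoles that hold intracellular parasites or bacteria, and on bacteria in the cytosol, where they help to break the vacuole and to start the caspase-11 inflammasome. Their transcription depends on STAT dimers at gamma-activated sites (GAS) and on IRF proteins and the ISGF3 complex at interferon-stimulated response elements (ISRE). In the RefSeq gene order of the mouse the family lies in 2 clusters. Chromosome 3 holds Gbp5, Gbp7, Gbp3, Gbp2b and Gbp2 in this order, and chromosome 5 holds Gbp8, Gbp9, Gbp4, Gbp10, Gbp6 and the pseudogene Gbp11. Copies within a cluster are alike in sequence, so a probe set named for 1 of them may also pick up another. The probe sequences were not used here.

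The groups differ in the oligonucleotide they received, the mimic or the control. Effects of the microRNA sequence and of other properties of the oligonucleotides cannot be told apart here. The microRNA that the mimic copies is shown first. RefSeq gives its mature form as mmu-miR-142a-3p, at chr11:87756903-87756925 on the plus strand of GRCm38.p6. Its seed, bases 2 to 8, is in capitals, and the sequence of the mimic itself is not given in the sources used here.
mmu-miR-142a-3p: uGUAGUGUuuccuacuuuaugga

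The RefSeq promoter table (GRCm38.p6) holds 3 of the member genes, Gbp2, Gbp3 and Gbp7. Their promoters are printed to show matches to the ISRE and GAS elements named above. Each is the 250 bases before the transcription start, 5′ to 3′ on the plus strand. Capitals mark matches to 2 motifs searched on both strands. The first is the ISRE core, GAAA, any 2 bases, GAAA, and the second is the GAS motif TTCNNNGAA, which reads the same on both strands. The stretches are chr3:142620413-142620662 for Gbp2, chr3:142559794-142560043 for the first of 2 starts of Gbp3, and chr3:142530086-142530335 for Gbp7.
Gbp2: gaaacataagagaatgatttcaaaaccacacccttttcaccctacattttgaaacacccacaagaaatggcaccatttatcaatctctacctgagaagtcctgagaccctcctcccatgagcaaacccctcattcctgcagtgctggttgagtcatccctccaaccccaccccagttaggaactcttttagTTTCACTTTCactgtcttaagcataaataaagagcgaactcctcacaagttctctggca
Gbp3: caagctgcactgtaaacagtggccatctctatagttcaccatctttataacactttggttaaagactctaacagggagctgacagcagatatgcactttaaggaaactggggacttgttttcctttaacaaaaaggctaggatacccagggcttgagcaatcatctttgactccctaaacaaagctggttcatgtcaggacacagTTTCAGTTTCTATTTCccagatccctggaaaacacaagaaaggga
Gbp7: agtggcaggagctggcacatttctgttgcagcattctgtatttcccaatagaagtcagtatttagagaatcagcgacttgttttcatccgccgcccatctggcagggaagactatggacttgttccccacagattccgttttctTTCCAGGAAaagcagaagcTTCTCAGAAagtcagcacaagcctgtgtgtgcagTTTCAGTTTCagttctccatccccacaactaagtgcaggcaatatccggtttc

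An ISRE core stood on the minus strand in each of these 3 windows. It began 59 bases before the start in Gbp2 and 53 bases before it in Gbp7. Gbp3 had a pair of overlapping matches, beginning 45 and 39 bases before its first start, and none at its second start. The GAS motif was found only in Gbp7 among the 3, beginning 106 and 87 bases before the start. Over all 32851 promoter windows of 300 bases in the table (250 before to 50 after a start), 3.44% held an ISRE core, 8.30% a GAS motif and 0.454% both. The relatives Gbp2b and Gbp5, which are not members, also held an ISRE core, beginning 137 and 165 bases before their starts. Gbp5 held the GAS motif as well, beginning 245 and 52 bases before its start, and Gbp2b did not. A match describes letters in the window and is not a measured binding site.

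In these cultures the guanylate-binding protein genes were higher with the mimic at 7 of the 9 probe sets, where each mimic array lay above each control array. Such a separation upward held for 8.62% of the 45037 probe sets compared. The 7 cover all 5 genes, with differences from 2.75-fold for Gbp7 to 4.93-fold for Gbp8. In the limma fit of all 45037 probe sets, 4 of the 9 passed an adjusted p of 0.05, both probe sets of Gbp2 and 1 each of Gbp7 and Gbp8, all upward, and 0 passed downward. The background is that 0.329% of all probe sets passed upward (148 higher and 256 lower in all). Gbp3 and both probe sets of Gbp6 were separated but varied more among the controls, and limma gave them an adjusted p of 0.0787, 0.0646 and 0.0703, above the threshold. With each gene represented by its brightest probe set and p-values adjusted over 18193 genes, all 5 genes passed upward (adjusted p from 0.00673 for Gbp2 to 0.0406 for Gbp3), against 1.17% of genes. The median log2 fold change of the 9 probe sets was 1.54, and that of all probe sets was 0.002.

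**Figure D1:**
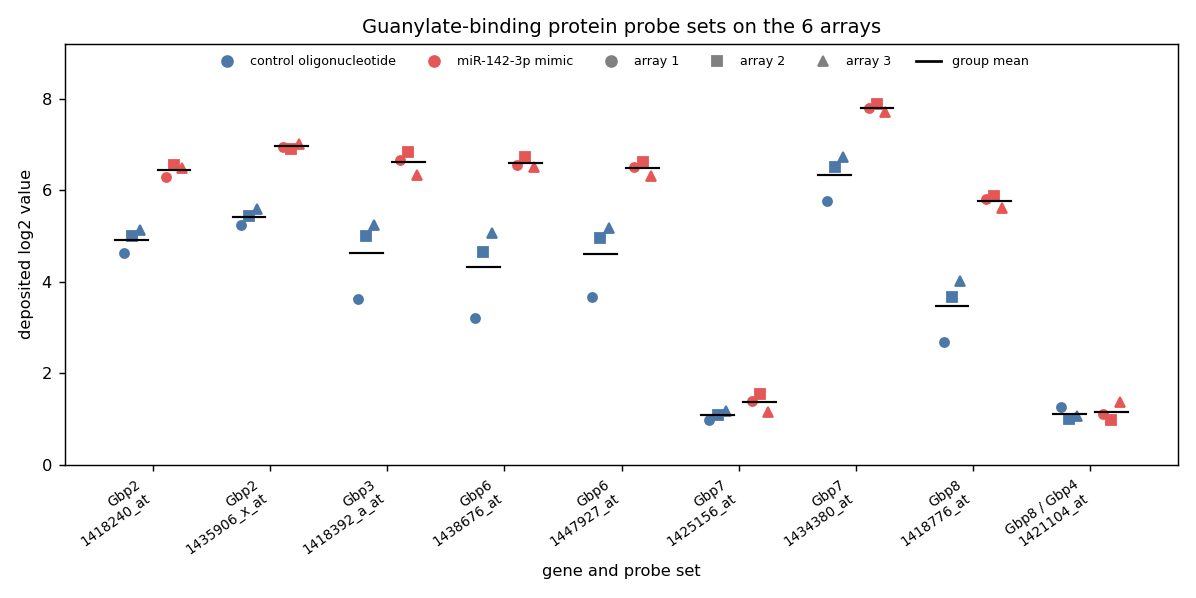
Deposited log2 values (vertical axis) of the 9 guanylate-binding protein probe sets (horizontal axis) on the 6 arrays, with control in blue, mimic in red, 1 symbol shape per array number and a black line at each group mean. In 7 probe sets the red points lie above all blue points with no overlap, while Gbp7 1425156_at and the shared Gbp8 / Gbp4 probe set stay between 0.98 and 1.55 in both groups.

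Gbp2 (Entrez gene 14469) encodes a member that ends in a CaaX box and is anchored to membranes by prenylation. Its probe set 1435906_x_at read log2 5.24, 5.43 and 5.59 on the controls and 6.96, 6.91 and 7.01 with the mimic, each trio given here and later in the order of array 1, 2 and 3. The mimic arrays spanned 0.10 log2 units, and the gap between the groups was 1.32. The group means were 5.42 ± 0.17 and 6.96 ± 0.05 (SD, n = 3), a 2.90-fold rise (1.54 ± 0.11 SE on the log2 scale, limma adjusted p = 0.0187). A second probe set, 1418240_at, read 4.63, 5.00 and 5.14 in the controls and 6.29, 6.56 and 6.49 with the mimic. It too was separated, and it rose 2.87-fold (log2 fold change 1.52 ± 0.15, adjusted p = 0.0187). The suffix x in the first name says that some of its probes may match other transcripts, and its fold differed from that of the second by less than either SE.

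Gbp7 (Entrez gene 229900) encodes a member known for helping to assemble the phagocyte NADPH oxidase and autophagy proteins on vacuoles. At 1434380_at it read 5.77, 6.51 and 6.74 in the controls and 7.80, 7.88 and 7.72 with the mimic. This is a 2.75-fold rise (log2 fold change 1.46 ± 0.23, adjusted p = 0.0439 by limma), from 6.34 ± 0.51 to 7.80 ± 0.08 (SD, n = 3). The other probe set of the gene, 1425156_at, stood at 0.99, 1.09 and 1.18 in the controls and at 1.38, 1.55 and 1.16 with the mimic. These values overlap and lie near the floor of the arrays, where 52.6% of all values are below 1, so the pair of Gbp7 probe sets does not tell the same size of difference (log2 fold change 0.28 ± 0.12, adjusted p = 0.378). Averaged over both, Gbp7 had a log2 fold change of 0.87 and passed (adjusted p = 0.0267 by limma, over genes).

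Gbp3 (Entrez gene 55932) lies next to Gbp7 in the chromosome 3 cluster. Its probe set 1418392_a_at read 3.62, 5.01 and 5.25 in the controls and 6.66, 6.83 and 6.34 with the mimic. Control array 1 lay well below the other controls, and the groups did not overlap. The means were 4.63 ± 0.88 and 6.61 ± 0.25 (SD, n = 3), a 3.96-fold difference with a 95% interval from 2.08-fold to 7.51-fold.

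Gbp6 (Entrez gene 100702), of the chromosome 5 cluster, was read by 2 probe sets. At 1438676_at the controls were 3.21, 4.66 and 5.08 and the mimic arrays 6.56, 6.72 and 6.52. At 1447927_at the controls were 3.67, 4.97 and 5.18 and the mimic arrays 6.51, 6.62 and 6.32. Control array 1 was again the lowest by more than 1 log2 unit in both, and the 2 groups stayed apart. The differences were 4.87-fold (log2 fold change 2.28 ± 0.42) and 3.67-fold (1.87 ± 0.36), with intervals that overlap.

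Gbp8 (Entrez gene 76074) had the largest log2 fold change of the 5 genes. Probe set 1418776_at read 2.69, 3.67 and 4.03 in the controls and 5.80, 5.87 and 5.61 with the mimic. The gap between the groups, 1.59, was the widest of the family. Gbp8 rose from 3.46 ± 0.69 to 5.76 ± 0.13 (SD, n = 3), or 4.93-fold (2.30 ± 0.31 on the log2 scale, limma adjusted p = 0.0309). The probe set annotated to both Gbp8 and Gbp4, 1421104_at, was made from a transcript that RefSeq assigns to Gbp4. It stood at 1.26, 0.99 and 1.07 in the controls and at 1.11, 0.98 and 1.38 with the mimic, near the floor and overlapping (log2 fold change 0.05 ± 0.13, adjusted p = 0.915). It gives no reading of Gbp8 beyond that of the first probe set, and its 95% interval runs from -0.26 to 0.36.

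**Figure D2:**
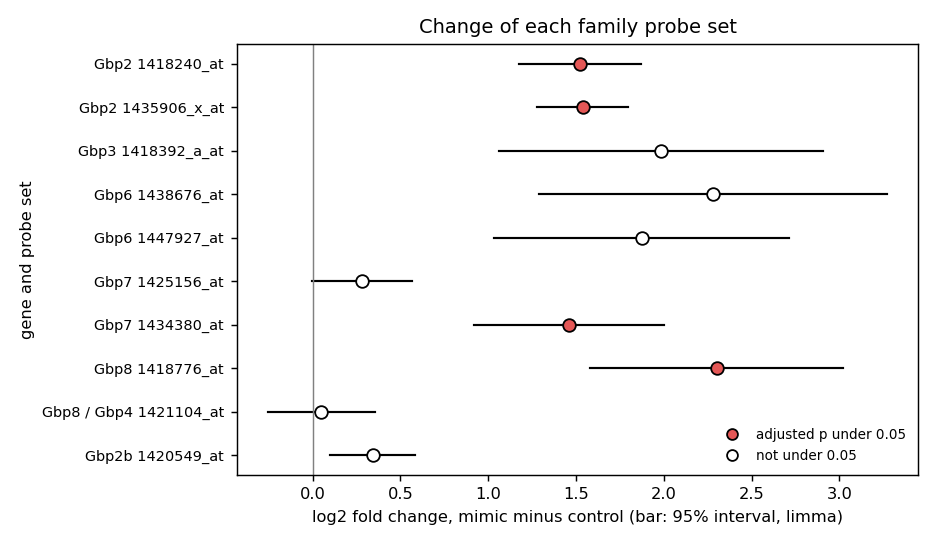
Log2 fold change, mimic minus control (horizontal axis), of the 9 member probe sets and of the relative Gbp2b (vertical axis), with 95% intervals from limma as bars and filled points for an adjusted p under 0.05. The 7 brighter probe sets lie between 1.46 and 2.30 and their intervals overlap, and the 3 dim ones lie between 0.05 and 0.34.

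The relative Gbp2b, which sits between Gbp3 and Gbp2 on chromosome 3, stood near the floor of the arrays. Its probe set read 0.46, 0.49 and 0.43 in the controls and 0.98, 0.75 and 0.68 with the mimic. The groups did not overlap, yet all 6 values were below 1, and the log2 fold change of 0.34 ± 0.10 did not pass (adjusted p = 0.21 by limma). Gbp2b was the only 1 of 6 further family genes looked for that had a probe set of its own symbol, and Gbp5, Gbp9, Gbp10, Gbp11 and Gbp4 by itself were not analysed here.

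The controls were uneven across the members and the mimic arrays were not. In all 7 brighter probe sets the SD of the controls, 0.17 to 0.98, was larger than that of the mimic arrays, 0.05 to 0.25. This order was not particular to the members. Itgax, which fell with the mimic, had an SD of 0.63 in the controls and 0.08 with the mimic, while Irf1 had 0.06 and 0.16. The share of all probe sets with this order was not computed. Control array 1 was the lowest control in 7 of 7 brighter member probe sets, by a median of -0.77 from the control mean. Control arrays 2 and 3 had medians of 0.21 and 0.56, and mimic arrays 1, 2 and 3 of 1.91, 2.01 and 1.71. Among all probe sets with a mean log2 of at least 3, control array 1 was the lowest control in 48.8%. The depth of that drop varied between members, from -0.18 in Gbp2 1435906_x_at to -1.10 in Gbp6 1438676_at. Across the 6 arrays the 7 brighter probe sets correlated with each other at Pearson r = 0.925 to 0.999, values that share the same arrays and the same group difference.

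**Figure D3:**
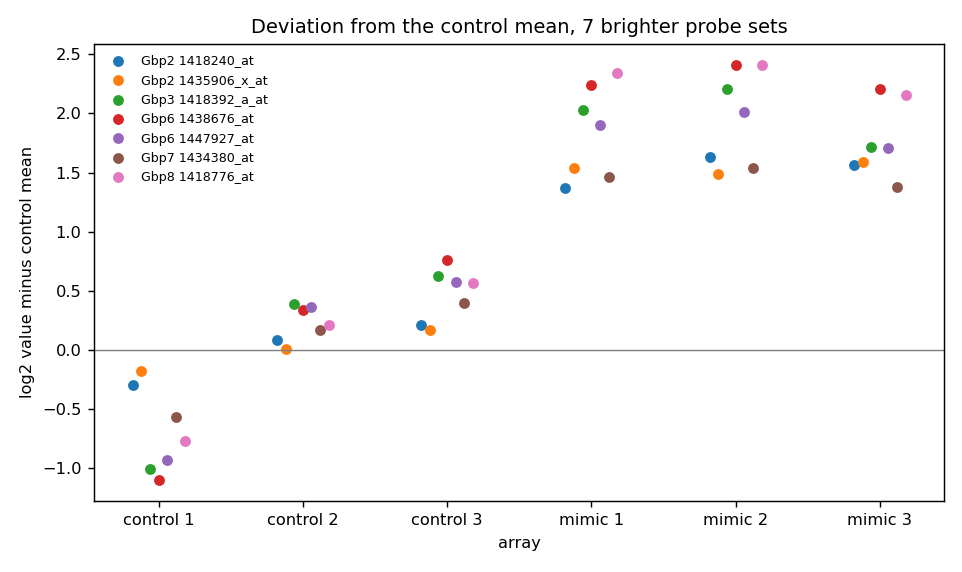
Log2 value minus the mean of the control arrays (vertical axis) for the 7 brighter member probe sets, 1 colour each, on the 6 arrays (horizontal axis). Control array 1 lies between -1.10 and -0.18, control arrays 2 and 3 between 0.01 and 0.76, and the mimic arrays between 1.37 and 2.41.

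How many members passed depended on which array was left out. Without control array 1 all 7 brighter probe sets passed upward (adjusted p from 0.0317 to 0.0435 by limma), against 0.284% of all probe sets, while the fold changes shrank, for Gbp6 1438676_at to a log2 of 1.73 and for Gbp3 to 1.48. Without control array 3, 3 members passed, both probe sets of Gbp2 and that of Gbp8, against 0.135% of all probe sets. Without control array 2, or without any 1 of the 3 mimic arrays, limma called 0 members and 0 probe sets of the whole table, and so none of the listed genes described further on. At an unadjusted p under 0.05 those 4 fits held 7, 7, 7 and 8 of the 9 members and 4579 to 5518 probe sets in all. A further quantile normalisation gave 7 members and a more even split over the table (315 higher and 316 lower).

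The fold changes of the 5 genes, each by its brightest probe set, were compared in 10 pairs as differences within an array. Gbp8 exceeded Gbp2 by 0.76, Gbp7 by 0.84 and Gbp6 by 0.43 on the log2 scale, and Gbp3 and Gbp6 exceeded Gbp7 by 0.52 and 0.42. In these 5 pairs the within-array differences of the groups did not overlap (exact permutation test, two-sided, p = 0.1 each, which is the smallest p that 3 arrays against 3 allow, adjusted p = 0.2 over the 10 pairs). The other 5 pairs overlapped, with Gbp2 and Gbp7 closest at a difference of 0.08. The design cannot reach a p under 0.05 in this test whatever the values, so the test decides nothing about any pair and the sizes are a description. The gap between Gbp8 and Gbp6 rests on the probe set taken for Gbp6. It was 0.019 with the other Gbp6 probe set and 0.22 with the mean of both, a choice made after seeing the data, and the groups overlapped in each. Without control array 1 the difference between Gbp8 and Gbp2 was 0.47 and that between Gbp3 and Gbp2 was 0.03.

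The immunity-related GTPases act with the guanylate-binding proteins at pathogen vacuoles, and of 6 measured genes 3 rose, 0 fell and 3 did not pass among probe sets. With 1 probe set per gene adjusted over genes, 5 rose and 0 fell. Iigp1, whose product loads onto Toxoplasma vacuoles, read 2.41, 3.91 and 4.30 in the controls and 6.44, 6.45 and 6.62 with the mimic. It rose 7.80-fold (log2 fold change 2.96 ± 0.43, adjusted p = 0.0359 by limma). Igtp, also called Irgm3, a regulatory member of that family, rose 2.57-fold, and Ifi47, another of these GTPases, rose 2.37-fold. Irgm1 and Irgm2, at 1.99-fold and 2.40-fold, were separated but did not pass among probe sets (adjusted p = 0.0547 and 0.0553 by limma), and both passed over genes (adjusted p = 0.028 each). Irgc1 had a log2 fold change of -0.11. The median log2 fold change of the list was 1.26. Relative to the control mean, its median was -0.44 in control array 1 and 0.12 and 0.34 in control arrays 2 and 3.

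Of 6 other large GTPases of the dynamin superfamily 1 rose among probe sets and 2 over genes. The first was the interferon-induced gene Mx1, at 6.24, 6.57 and 6.76 in the controls and 8.13, 7.84 and 8.33 with the mimic, a 2.98-fold rise (1.58 ± 0.17 on the log2 scale, limma adjusted p = 0.0194). The second was its relative Mx2, 1.97-fold higher with separate groups (limma adjusted p = 0.0672 among probe sets and 0.0344 over genes). Genes of this list for membrane work in every cell, such as Dnm2 for endocytosis (0.04 ± 0.12) and Atl3 of the endoplasmic reticulum (0.07 ± 0.09), overlapped between the groups. The list's median was 0.16.

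Upstream of the family, 8 genes of interferons and their receptors were measured, and 0 rose and 1 fell. Ifng, Ifnb1 and Ifna4, which encode interferon-gamma and type I interferons, stood at 0.18, 0.45 and 0.31 in control and at 0.22, 0.34 and 0.30 with the mimic, at the floor in both groups. Ifnar1, a chain of the type I interferon receptor, read 5.26, 5.19 and 5.03 in the controls and 4.49, 4.54 and 4.58 with the mimic, a 1.54-fold fall (log2 fold change -0.62 ± 0.10, adjusted p = 0.0411). That call was lost in 9 of 15 alternative fits, always with the same direction. The 2 chain genes of the interferon-gamma receptor were separated in opposite directions, and neither passed. Ifngr2 was 1.69-fold lower (adjusted p = 0.2 by limma), the largest difference of the list, and Ifngr1 was 1.22-fold higher (adjusted p = 0.277 by limma). Of 10 JAK, STAT and IRF genes 1 rose among probe sets, Irf1, which encodes a transcription factor that takes part in the induction of the family by interferon-gamma. Over genes 2 of the 10 rose and 1 fell. These additional calls were Irf7, a factor of the type I interferon response at 2.07-fold higher (limma adjusted p = 0.0545 among probe sets and 0.0273 over genes), and the kinase gene Jak1 at 1.68-fold lower (0.0701 and 0.0373). Irf1 read 5.55, 5.60 and 5.67 in the controls and 6.23, 6.40 and 6.54 with the mimic (1.72-fold, 0.78 ± 0.11 on the log2 scale, limma adjusted p = 0.031). The Irf1 call was lost in 8 of 16 alternative fits, among them each of the 6 that left out an array, always with the same direction. Irf1 differed by 0.12 between its lowest and highest control array. Among 8 inhibitors of interferon signalling Usp18, which removes ISG15 and blocks the type I receptor, rose 2.16-fold (adjusted p = 0.0373), and the remaining 7 did not pass. The medians of these 3 lists were -0.01, -0.03 and -0.07.

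Downstream, of 9 measured inflammasome genes 2 rose and 1 fell. Casp4, the gene of caspase-11, read 5.83, 5.89 and 6.05 in the controls and 6.84, 6.81 and 6.97 with the mimic, a 1.93-fold rise (0.95 ± 0.10 on the log2 scale, limma adjusted p = 0.0191). Casp1, whose protease matures IL-1 beta, rose 1.87-fold (adjusted p = 0.0463). Il1b, the cytokine gene itself, went the other way, from 7.52, 6.94 and 6.88 in the controls to 5.91, 5.94 and 6.19 with the mimic, a 2.14-fold fall (adjusted p = 0.0478). The pore gene Gsdmd (-0.03 ± 0.13) and the adaptor gene Pycard (-0.0019 ± 0.096) did not pass. Parts of the autophagy machinery help to place the proteins on vacuoles. Of 9 autophagy genes, which encode conjugation enzymes, ATG8 proteins and the cargo receptor Sqstm1, 0 passed in limma, and the largest difference was that of Atg12, at 0.92 ± 0.21 (adjusted p = 0.112). Of 6 genes of protein prenylation, the lipid anchor of CaaX-ended members, 0 passed, and Icmt was the farthest from 0 at -0.40 ± 0.17 (adjusted p = 0.377). At an unadjusted p under 0.05 there were 2, Atg12 and Gabarap. With the brightest probe set per gene adjusted over genes, again 0 of both lists passed.

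**Figure D4:**
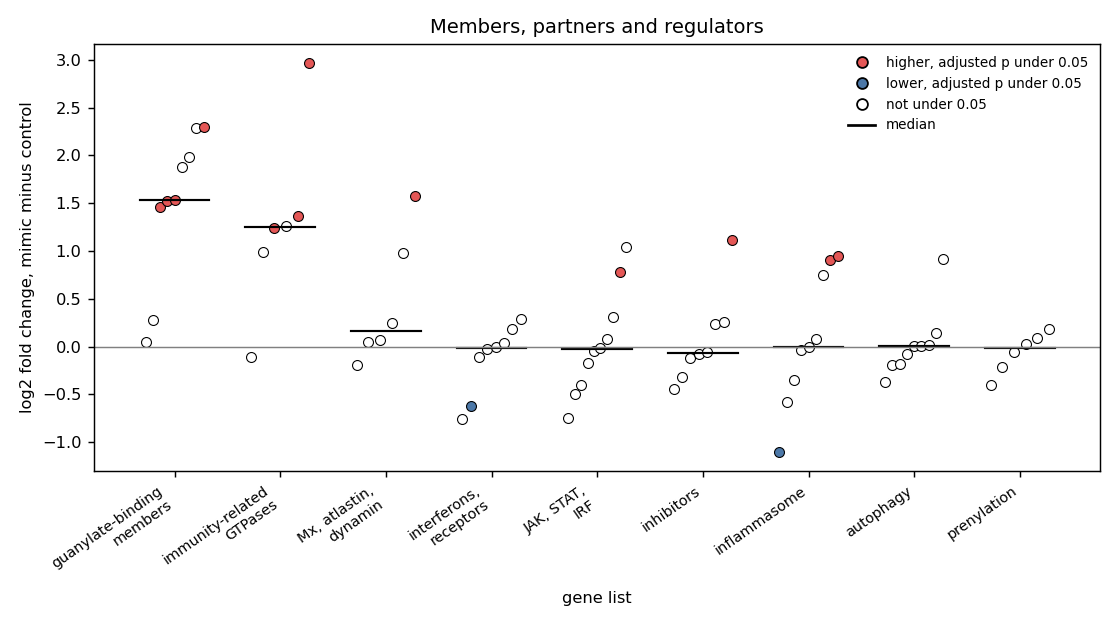
Log2 fold change, mimic minus control (vertical axis), of the 9 member probe sets and of each gene in 8 lists of partners and regulators (horizontal axis), with red for higher and blue for lower at an adjusted p under 0.05, white for the others and a black line at each median. The medians are 1.54 for the members and 1.26 for the immunity-related GTPases, and between -0.07 and 0.16 for the other 7 lists.

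The genes whose pattern over the 6 arrays was most like the mean of the 5 member genes, among 2469 candidates whose mean log2 in the higher group reached 6, were Ms4a6d, C3ar1, Ampd2, Ifit1bl1, Ifi47 and Ifih1. Their Pearson r ran from 0.998 to 0.9995 over 6 arrays, and these points share the group difference and the low control array 1. C3ar1, the receptor gene for complement C3a, read 6.33, 6.87 and 7.05 in the controls and 7.89, 7.98 and 7.86 with the mimic. Ms4a6d, a tetraspan gene of myeloid cells, was 2.02-fold higher, and Ifih1, which encodes the RNA sensor MDA5, was 2.19-fold higher without passing (adjusted p = 0.0631 by limma). Ampd2 was 1.45-fold higher and did not pass either (adjusted p = 0.0926 by limma). Averaged over its probe sets, Ampd2 had a log2 fold change of 0.14.

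Markers of the labelled myeloid culture were present, with group means of 11.85 and 11.96 for S100a8 and of 12.21 and 12.25 for S100a9, in control and mimic. Of 9 such markers 0 rose and 2 fell, Itgam and Cd14. Dendritic cell markers moved with the group in the other direction from the members. Of 6, 4 fell (Itgax, Cd74, H2-Ab1 and Ccl17), 1 was below 3 on every array, and the log2 of their summed linear level was 10.2 to 11.4 in the controls and 8.90 to 8.93 with the mimic. Control array 1, the lowest control in the brighter member probe sets, was the highest control for each of these 6 markers. The controls read 7.84, 6.96 and 6.62 for Itgax and 8.30, 7.04 and 6.34 for Ccl17. Of 7 T and NK cell markers 0 passed and 6 were below 3 on every array, among them Cd3e, Cd3g and Ncr1, and the summed level, 4.25 to 4.81 in control and 5.36 to 5.53 with the mimic, was carried by Nkg7. Plasmacytoid dendritic cell markers summed to 5.52 to 5.63 and 5.12 to 5.30, with 2 of 5 below 3 on every array, among them Siglech, and Spib fell (1.96-fold, limma adjusted p = 0.0255). Macrophage markers summed to 10.2 to 10.3 and 9.96 to 10.0. Mast cell and basophil markers summed to 8.21 to 9.06 and 9.36 to 9.53, where Fcer1a rose, and B cell markers to 6.25 to 6.85 and 5.90 to 6.16, where Ms4a1 fell. The part of these cell types in the differences of the guanylate-binding protein genes was not tested.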

How the data were processed

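The submitters deposited 1 log2 value per probe set and array, and the tools listed per the submitters' processing notes are RMA and affy, without version. How the values were centred and floored is unknown. The values (-0.39 to 12.3, column medians 0.84 to 0.92) were used as deposited. Arrays correlated at 0.982 to 0.996 and no 2 were identical. Groups follow the treatment in the labels.

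After 64 Affymetrix controls were left out, 45037 probe sets were fitted across all genes with limma 3.58.1 in R 4.3.3 (lmFit, eBayes, no covariate, two-sided), with Benjamini-Hochberg adjustment and a threshold of 0.05. Of these, 34945 have 1 gene symbol, updated through gene identifiers to RefSeq names (34741 matched), 932 several and 9160 none listed. Other genes are represented by their brightest probe set with 1 symbol. A list of 75 entries (63 measured) covers relatives, regulators and partners. The text names every member, from each list up to 4 genes past the threshold or else the 1 with the largest change, and the 6 genes most like the members, together with genes chosen after their values were seen (Irgm1, Irgm2, Irgc1, Mx2, Irf7, Jak1, Gabarap, Dnm2, Atl3, Ifng, Ifnb1, Ifna4, Ifngr1, Ifngr2, Gsdmd, Pycard, and markers). Members and lists were chosen with earlier results of these data known. The method was tested on simulated data. Alternatives were each array left out, the replicate number as a block, 1 or averaged probe sets per gene, filters on dim probe sets, other variance models, array weights, centring, quantile normalisation and a minimum fold of 1.2.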

Additional observations from a re-analysis of the deposited data

How the results depend on the processing

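Leaving out single arrays gave 0 to 314 called probe sets (404 with all arrays), 0 to 7 of the members (4 with all arrays) and 0 to 12 of the 63 listed genes (10 with all arrays). The cause was not tested. With the replicate block 69 probe sets, 2 members and 1 listed gene were called, and with a minimum fold of 1.2 these were 50, 2 and 1. Whether equal numbers mark a shared culture, mouse or batch is not in the labels. Deviations from the group means correlated at -0.07, 0.13 and -0.14 for same-numbered arrays. For arrays of different number they correlated at -0.18 to 0.22. So few values, from groups of 3 arrays, cannot decide whether the arrays are paired. Probe sets with a mean log2 of at least 3 gave 835, 7 and 17, where fewer were tested, and those of at least 5 gave 780 probe sets. Trended robust variance gave 812 probe sets and 16 listed genes, array weights 944, 7 and 16, and repeated quantile normalisation 631 probe sets and 7 members. The 7 brighter members kept a positive log2 fold change in each of these fits that included them, which their separation fixes in advance where arrays are only left out. Gbp8 was not in the fit of probe sets with a mean of at least 5. The shared Gbp8 and Gbp4 probe set ran from -0.061 to 0.14 with single arrays left out and was -0.0085 without control array 2, so its sign turned.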

Other observations

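Relatives of the guanylate-binding proteins on probe sets with several symbols were looked up after the lists had been read, so they were chosen after their values could be seen. The interferon-inducible GTPases Tgtp1 and Tgtp2 share 1 probe set, which read 5.74, 6.46 and 6.80 on the controls and 8.53, 8.51 and 8.62 with the mimic, each in the order of array 1, 2 and 3. The groups did not overlap, and the pair was 4.66-fold higher with the mimic (log2 fold change 2.22 ± 0.24, adjusted p = 0.0194 by limma), near the size of the difference of Gbp8. The very large interferon-inducible GTPase Gvin1 shares a probe set with Gm4070, which ran from 7.32 to 8.10 in the controls and from 8.78 to 8.98 with the mimic. It was 2.06-fold higher without passing (log2 fold change 1.04 ± 0.20, adjusted p = 0.0739). In both, control array 1 was the lowest control, as it was in the 7 brighter member probe sets.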
